A study of Mus musculus with 2 samples.

Results

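Cytosolic ribosomal protein genes were chosen by name, as the genes whose array name is Rpl or Rps followed by a number, with an optional letter, or Rplp0 to Rplp2. They came to 77 genes of the 27962 gene names on the array, read by 128 probes, and 76 of the genes could be tested. Their transcripts were measured on 2 two-colour arrays (Agilent Whole Mouse Genome, 4 x 44K), each of which compared thymic stromal cells of C57BL/6 mouse fetuses in reaggregation thymus organ culture (RTOC) with thymic stromal cells in 2D culture. In RTOC the dispersed cells are put back as a dense aggregate on a membrane, and in 2D culture they are plated on a dish. One array held stroma of E14.5 fetuses after 8 days of organ culture of the lobes, and the other stroma of E15.5 fetuses after 9 days. Cells of all 4 preparations had been treated with 1.35 mM deoxyguanosine, which removes lymphoid cells, and were harvested after 72 h in RTOC or 2D culture. The stroma is a mixture of epithelial, mesenchymal, endothelial and other cells, and nothing in the labels says how many fetuses or cultures each RNA came from. RTOC RNA carried Cy5 and 2D RNA carried Cy3 on both arrays, with no dye swap, so the dye and the culture cannot be told apart. Both arrays measure the ratio of RTOC over 2D culture and serve as its 2 replicates; since each stage has 1 array, effects of the stage, of the days in organ culture and of the array itself cannot be told apart.

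Ribosomal proteins of the large (Rpl) and small (Rps) subunits, together with ribosomal RNA, form the particle that translates mRNA in the cytosol, and the P-stalk proteins Rplp0, Rplp1 and Rplp2 recruit translation factors to it. Their mRNAs are among the most abundant in growing cells. Nearly all of them begin with a C and a run of pyrimidines, the terminal oligopyrimidine (TOP) tract, through which mTORC1 and Larp1 control their translation and stability. Several of the proteins also act outside the ribosome, the best known being Rpl5 and Rpl11, which bind the p53 ubiquitin ligase Mdm2 when ribosome assembly is disturbed.

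The probes that carried the extremes of the family are shown first, from the deposited scanner files, because each ratio is the ratio of 2 dyes bound to a single stretch of 60 bases. Among the brightest probes of each gene, those of Rps7, Rpl5 and Rps20 gave 3 of the 4 highest ratios and that of Rps2 the lowest, and the dimmer probe of Rps2 is added beside it. They are written 5′ to 3′ in lower case.
Rps7: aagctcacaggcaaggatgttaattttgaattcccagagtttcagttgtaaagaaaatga
Rpl5: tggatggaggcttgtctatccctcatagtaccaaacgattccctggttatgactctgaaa
Rps20: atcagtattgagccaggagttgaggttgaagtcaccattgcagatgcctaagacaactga
Rps2, brighter probe: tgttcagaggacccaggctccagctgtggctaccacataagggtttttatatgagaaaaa
Rps2, dimmer probe: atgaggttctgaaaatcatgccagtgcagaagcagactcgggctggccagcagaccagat

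The family was higher in RTOC than in 2D culture on both arrays. The median log2 ratio over the 76 genes was 0.90 for E14.5 stroma and 0.84 for E15.5 stroma, and the median of the means of the 2 arrays was 0.93, beside 0.05 over all 16249 genes tested. In 2D culture the brightest probes of the 76 genes took 4.27% (E14.5) and 4.39% (E15.5) of the summed normalized signal of all probes, and in RTOC they took 8.73% and 8.68%. The ratio was above 0 on both arrays for 69 of the 76 genes, a pattern that 42.2% of all genes tested showed. In bulk RNA, a change in the mixture of cells and a change in the RNA of each cell cannot be told apart.

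By limma, with a Benjamini-Hochberg adjusted p under 0.05 over all probes tested, 46 of the 123 member probes tested were higher in RTOC, where 15.3% of all 23685 probes tested were, and 0 were lower, where 13.6% of all probes were. At an unadjusted p under 0.05, 69 member probes were higher, where 22.4% of all probes were. Counted by gene, with the brightest probe of each, 34 of 76 rose and 0 fell, against 16.7% and 12.1% of all genes tested. The 34 genes ran from a mean log2 ratio of 0.94 to 2.86, and the highest mean among the 42 genes that did not pass was 1.04. With 2 arrays there is 1 residual degree of freedom, so these p-values rest on the spread that limma shares over all probes, and an exact sign-flip test of a single gene could not go below p = 0.5. Without the filter on dim probes, or by the methods' t-test with the same adjustment, 0 member probes passed, with 54 of 128 and 17 of 123 of them higher at an unadjusted p under 0.05, where 12.4% and 6.96% of all probes were.

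**Figure D1:**
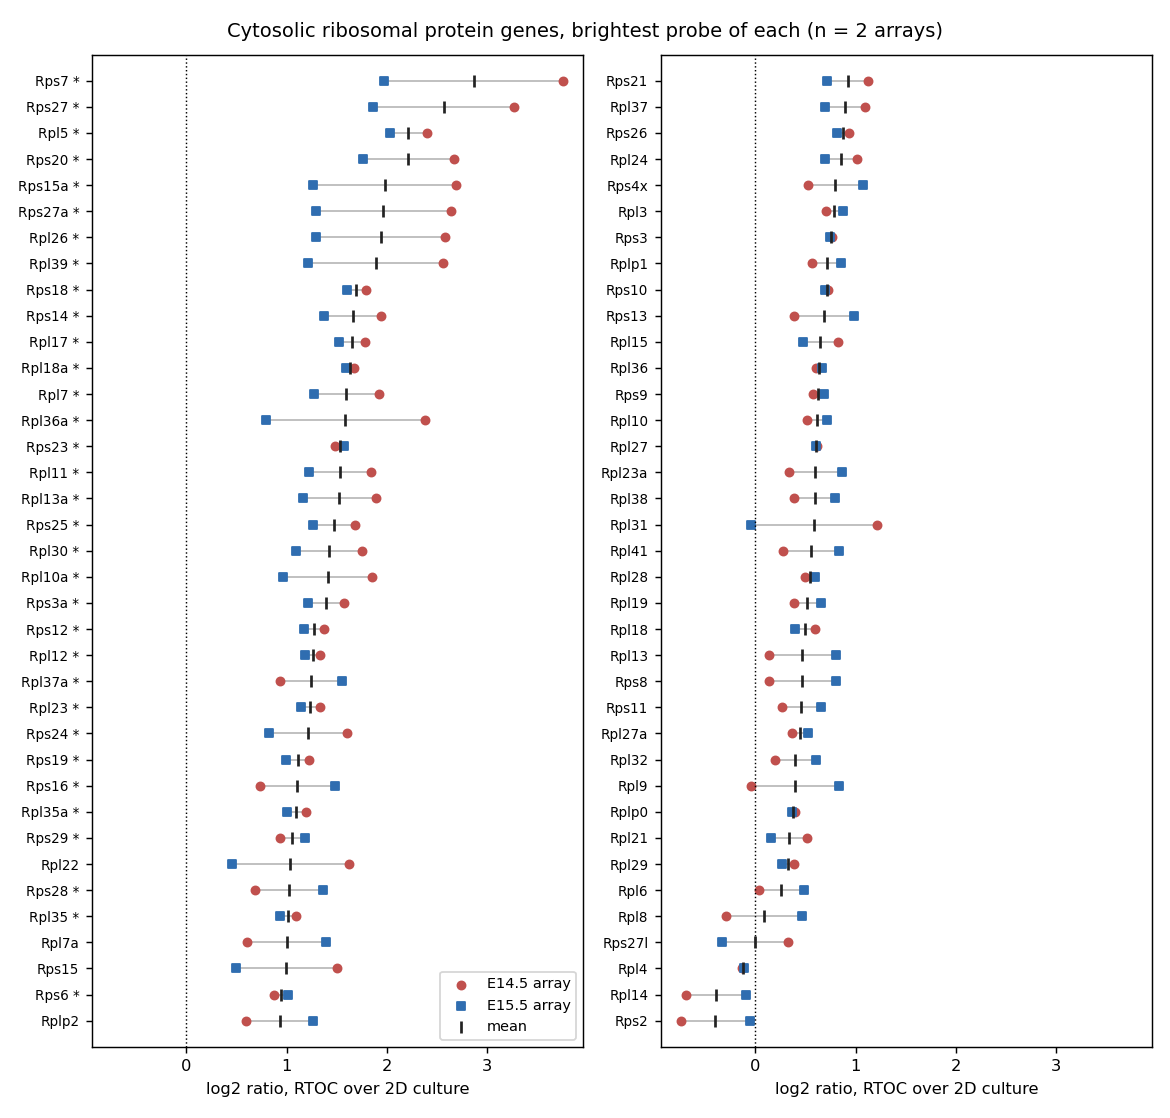
Log2 ratio of RTOC over 2D culture for 74 of the 76 ribosomal protein genes tested, ordered by their mean, with the E14.5 array as circles, the E15.5 array as squares and the mean of both as a bar; an asterisk marks a limma adjusted p under 0.05. Rps7 leads at a mean of 2.86, the 4 genes with a mean below 0 stand at the bottom right, and the 2 arrays lie farthest apart among the genes with the highest ratios.

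The highest ratio in the family was that of Rps7, a protein of the small subunit. With E14.5 stroma its log2 signal was 13.76 in 2D culture against 17.51 in RTOC, and with E15.5 stroma 15.13 against 17.10. The log2 ratios of 3.76 and 1.97 gave a mean of 2.86 ± 1.26 (SD, n = 2 arrays), a 7.28-fold difference (limma adjusted p = 0.00972). Both RTOC signals lay above both 2D signals. Rps27, a zinc-binding protein of the small subunit, followed at 3.27 and 1.86, with a mean of 2.57 ± 0.99 (limma adjusted p = 0.008). Rpl5, which carries the 5S RNA into the large subunit, was at 2.40 and 2.03. Its mean of 2.21 ± 0.26 had the lowest adjusted p of the family, 0.0042 from limma. Rps20 had the same mean, 2.21 ± 0.64, from 2.66 and 1.76 (limma adjusted p = 0.007). These 4 genes stood at 4.64-fold or more, with RTOC above 2D culture on each array.

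The next 4 genes were close to each other. Rps15a was at 2.69 and 1.27, Rps27a, which is made as a fusion with ubiquitin, at 2.63 and 1.29, Rpl26 at 2.58 and 1.29, and Rpl39, one of the smallest ribosomal proteins, at 2.56 and 1.21. Their means of 1.98, 1.96, 1.94 and 1.89 were closer to each other than the SD of any of them (0.91 to 1.003). For each of the 4 the ratio on the E14.5 array was the higher, by more than 1. All 4 passed limma at adjusted p = 0.017 to 0.020. After normexp and loess their means were 2.13, 2.12, 2.14 and 2.06, at limma adjusted p = 0.055 to 0.059, so that none of the 4 passed.

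At the lower end, 4 genes had a mean below 0 and none of them passed the test. Rps2, which lies at the entry of the mRNA channel, had log2 signals of 17.40 in 2D culture against 16.66 in RTOC with E14.5 stroma, and of 17.17 against 17.12 with E15.5 stroma. Its log2 ratios of -0.74 and -0.05 gave a mean of -0.40 ± 0.48 (limma adjusted p = 0.343), which turned to 0.06 after normexp and loess and to 0.50 after normexp and median centring. A dimmer probe of Rps2 was lower still, at -0.91 and -0.65. Rpl14 was at -0.69 and -0.09 and Rpl4, a protein with a long arm into the exit tunnel, at -0.14 and -0.11, and Rpl4 turned to 0.10 with normexp and median centring. Rps27l, a close paralogue of Rps27 known as a p53 target, was at 0.32 and -0.33, with a mean of -0.01 ± 0.46 (limma adjusted p = 0.991) that rose to 0.12 after normexp and loess. Above them came Rpl8 (0.09), Rpl6 (0.26) and Rpl29 (0.32), with means on the log2 scale that did not differ from 0 by limma. Rps27 and Rps27l thus gave ratios of 2.57 and -0.01, and their difference was not tested. Rpl3l, a paralogue of Rpl3 known from muscle, was not well above background in either culture.

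The spread of ratios within the family was wide but narrower than over all genes. The means of the 76 genes had an SD of 0.64 and an interquartile range of 0.88 (0.55 to 1.43), against an SD of 1.204 over all genes tested. On the E14.5 array the SD over genes was 0.89, with ratios from -0.74 to 3.76. On the E15.5 array it was 0.49, with ratios from -0.33 to 2.03. The corresponding SDs over all genes were 1.34 and 1.18, so the E14.5 array was the wider in both, by more in the family. Among the 2268 other probes in the brightest 10% of those tested, where 73 of the 76 genes lay, the median of the means was 0.02 and their SD 1.04.

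Across the 76 genes the ratios of the arrays correlated with Pearson's r = 0.69 and Spearman's rho = 0.67, beside r = 0.83 over all genes and 0.85 over the other probes of the brightest 10%. These are correlations across genes, which are not independent, and both arrays share the slide and the direction of the dyes. The size of r also depends on the spread of the ratios, which was narrower in the family (SD of the means 0.64 against 1.20 over all genes). The lower r therefore does not by itself mean poorer agreement. The difference between the arrays, E14.5 minus E15.5, had a median of 0.12 and an SD of 0.66 over the family, against an SD of 0.75 over all genes. The arrays gave opposite signs for 4 of 76 genes (5.26%), compared with 20.1% of all genes. For 10 genes the arrays differed by over 1 on the log2 scale, and for all 10 the E14.5 array was the higher. The 5 largest differences were those of Rps7 (1.79), Rpl36a (1.58), Rps15a (1.42), Rps27 (1.40) and Rpl39 (1.35). The closest pairs were Rpl27 (0.61 and 0.60), Rps3 (0.77 and 0.75) and Rpl4. Rplp0, often used as a reference gene in RT-PCR, was printed in 10 spots and gave 0.39 and 0.37, with an SD between spots of 0.02 on each array. The spots of this probe thus spread about as far as its ratios on the 2 arrays, and every other tested probe of the family had 1 spot.

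**Figure D2:**
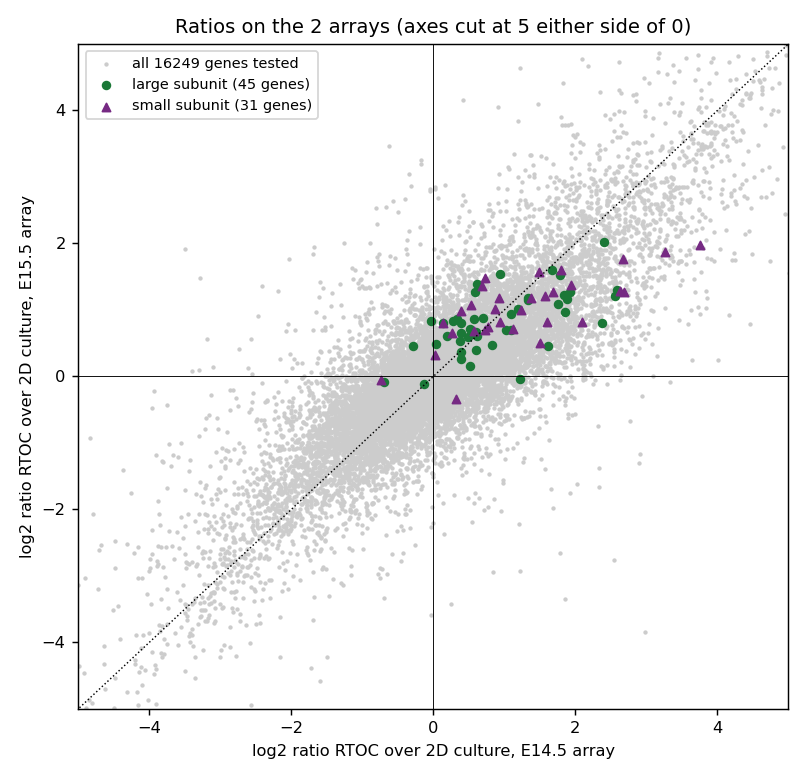
Log2 ratio of RTOC over 2D culture on the E14.5 array (x) and the E15.5 array (y), with all 16249 genes tested in grey, genes of the large subunit and P-stalk as circles and genes of the small subunit as triangles; the dotted line marks equal ratios and the axes are cut at 5. The family lies in the upper right, and beyond 2 on the x axis it falls below the line.

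Both subunits were higher in RTOC. The 31 genes of the small subunit had a median log2 ratio of 1.06, with 18 of 31 called higher (16.7% of all genes were), and the 45 genes of the large subunit with the P-stalk a median of 0.71, with 16 of 45 called. By array the medians were 1.12 (E14.5) and 1.01 (E15.5) for the small subunit and 0.61 and 0.80 for the large subunit. The SD over genes was 0.71 within the small subunit and 0.57 within the large, and the difference between the subunits was not tested.

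Within the ribosome, genes were grouped by a known role. The counts of each group stand beside 34 of 76 genes called higher in the family and 16.7% of all genes tested. The list of Rpl5 and Rpl11, of the 5S particle, and Rpl23, all of which bind Mdm2 as several other ribosomal proteins do, had 3 of 3 genes higher, Rpl5 at a mean log2 ratio of 2.21, Rpl11 at 1.53 ± 0.44 (1.84 and 1.22, limma adjusted p = 0.015) and Rpl23 at 1.24 ± 0.13 (1.33 and 1.14, limma adjusted p = 0.020). Of the 4 genes of the P-stalk and its base, Rpl12 rose (1.26 ± 0.10, limma adjusted p = 0.019), and Rplp2, Rplp1 and Rplp0 had means of 0.93, 0.71 and 0.38 that did not pass. None of the 3 genes nearest the peptidyl transferase centre, where peptide bonds are made, passed the test. Rpl3 was at 0.79, Rpl10 at 0.61 and Rpl8 at 0.09. After normexp and loess, another way of processing the signals, Rpl3 (1.02), Rpl10 (0.76), Rplp1 (1.03) and Rplp2 (1.13) passed, and Rpl8 stood at 0.46. Of 8 genes lining the exit tunnel of the nascent chain 4 rose, Rpl26, Rpl39, Rpl17 (1.65 ± 0.18) and Rpl35 (1.01 ± 0.12), while Rpl23a (0.60), Rpl31 (0.58), Rpl19 (0.52) and Rpl4 (-0.12) did not pass. Rps23 (1.53 ± 0.07) and Rps28 (1.02 ± 0.48) rose among 6 genes of the mRNA channel and decoding site, where Rps15 was at 0.999, Rps26 at 0.87, Rps3 at 0.76 and Rps2 at -0.40. After normexp and loess Rpl19 (0.86), Rpl23a (0.94), Rps3 (1.11) and Rps26 (0.93) passed, while Rpl26 and Rpl39 no longer did at ratios of 2.14 and 2.06. Rps6, the target of the S6 kinases downstream of mTORC1, rose to 0.94 ± 0.10 (0.87 and 1.01, limma adjusted p = 0.042). Without the replicate block Rps6, Rps28 and Rpl35 no longer passed, nor did Rps24 and Rpl36a, named next.

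Other groupings were described in the same way. Of 20 genes mutated in Diamond-Blackfan anaemia, an inherited failure of red cell production, 14 rose, beside 34 of 76 in the family they are drawn from and 16.7% of all genes, with a median of 1.104; they included Rps19 (1.11 ± 0.16) and Rps24 (1.21 ± 0.56). Of the 4 X-linked genes, Rpl36a (1.59 ± 1.12) and Rpl39 rose, while Rps4x (0.80) and Rpl10 (0.61) did not pass; after normexp and loess Rps4x (1.12) and Rpl10 (0.76) passed while Rpl36a (1.83) and Rpl39 (2.06), still the higher, did not. Since the groups overlap and are small, their medians are descriptions and were not compared by a test.

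Further probes of the same genes, which had no part in the value that stands for each gene, showed how far a ratio depended on the stretch of the transcript that was read. Of the 37 genes with more than 1 probe, 36 had 2 or more that were tested. In 34 pairs, over 26 genes, the further probe was within 16-fold of the brightest probe in signal, and all 34 pairs had the same sign. Across these pairs the means correlated with r = 0.81, and the difference between the arrays with r = 0.90, with a median absolute difference of 0.16 between probes. For the 28 pairs that share no run of 15 bases the values were 0.79 and 0.87. The probes of a pair share their RNA, labelling and array, and some genes give several pairs, so the correlations are descriptions. Rpl29 had 4 probes, at means of 0.32, 0.28, 0.23 and 0.18. Rpl36a had 3, at 1.59, 1.70 and 1.32, each of them higher on the E14.5 array by more than 1. Rpl31 had 2, at 1.21 and -0.04 and at 1.43 and 0.18, so the gap between the arrays was also seen with the further probe. Over all 47 pairs, with the 13 whose further probe was dimmer than that, the means correlated with r = 0.40 and the differences between the arrays with r = 0.64, and over those 13 alone with r = 0.23 and 0.07. These values include the dim probes of Rps6, Rps18 and Rpl37, whose ratios have only a bound on 1 or both arrays, so no conclusion is drawn from them.

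**Figure D3:**
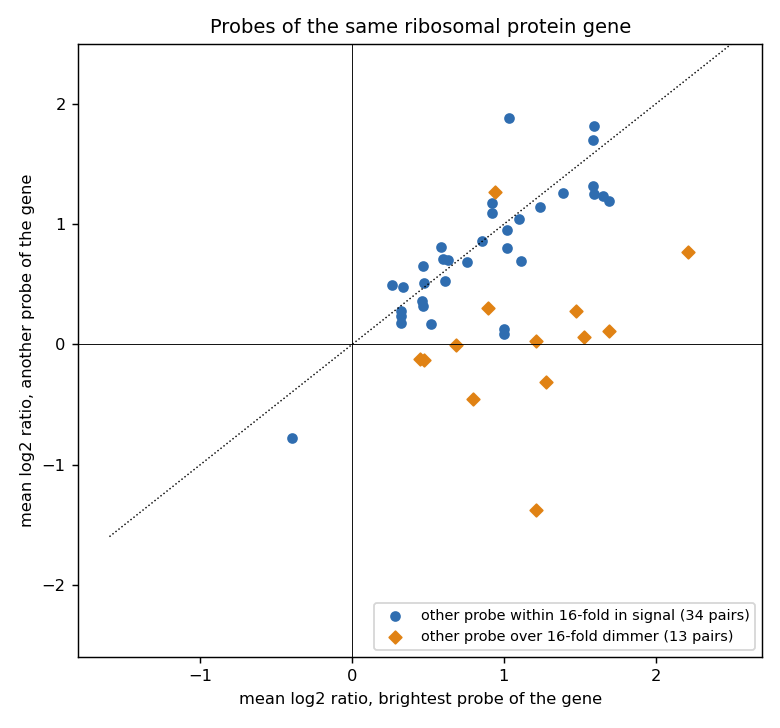
Mean log2 ratio of the brightest probe of a gene (x) against that of each further probe of the gene (y), as circles where the further probe was within 16-fold in signal (34 pairs) and as diamonds where it was over 16-fold dimmer (13 pairs); the dotted line marks equality. The circles follow the line, apart from the 2 further probes of Rpl7a near 0 and that of Rpl22 above it, while most of the diamonds lie near or below 0; those of Rps6 and Rps18 have only a bound, and that of Rpl37 one on the E14.5 array.

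The exceptions among bright probes were few. Rpl22 had 1.04 ± 0.82 from its brightest probe, which did not pass, and 1.89 ± 0.78 from the other (limma adjusted p = 0.015). Rpl7a, a protein of the large subunit, had 3 probes, at 0.9997 ± 0.55 (0.61 and 1.39), 0.09 ± 0.23 (-0.08 and 0.25) and 0.13 ± 0.24 (-0.05 and 0.30), none of which passed. The probes named A and C share the 14 bases in capitals, where the end of A is the start of C, and they are shown because neighbouring stretches of a transcript gave unlike ratios.
Rpl7a, probe A, the brightest: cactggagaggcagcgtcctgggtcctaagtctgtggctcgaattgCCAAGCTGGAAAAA
Rpl7a, probe B: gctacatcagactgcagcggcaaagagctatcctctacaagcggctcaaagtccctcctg
Rpl7a, probe C: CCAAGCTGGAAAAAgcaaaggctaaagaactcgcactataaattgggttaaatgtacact

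The 13 further probes over 16-fold dimmer had the same sign in 7 pairs and a median absolute difference of 1.2. The 7 include the pairs of Rps6, Rps18 and Rpl37, whose dim probes have only a bound on 1 or both arrays, so no conclusion is drawn from this count. Of the 13, 11 were drawn from clone sequences that the array files list under the gene's name. The widest gap was at Rps24, whose RefSeq probe gave 1.21 (1.61 and 0.82) and whose clone probe gave -1.38 (-2.12 and -0.64, limma adjusted p = 0.053). Clone probes of Rps12 (-0.31), Rpl11 (0.06), Rps20 (0.77) and Rps4x (-0.46) also differed from the RefSeq probes by over 1 on the log2 scale, as did another clone probe of Rps24 (0.03) and a dim RefSeq probe of Rps25 (0.28). Clone probes of Rpl13 (-0.13), Rpl27a (-0.12) and Rps13 (-0.01) differed in sign from the brightest probes, which stood at 0.47, 0.45 and 0.68; after normexp and loess the brightest probes of Rpl13 (0.81) and Rps13 (0.96) passed the test. The 2D signals of the clone probes of Rps6 and Rps18 were not well above background on either array, so the ratios of these 2 of the 13 probes have only a bound, and the dim probe of Rpl37 (0.30) has one on the E14.5 array. Such probes may not read the ribosomal protein mRNA itself, which was not tested. The mouse annotation also holds 304 pseudogenes named after 60 of the family's genes, and a probe cannot tell a transcript from a near-identical copy.

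Members had in common a place of their signal near the top of the range of the array. The median signal of the family lay at the 99.5th percentile of the probes tested. All 76 genes were well above background in all 4 channels, and 1 spot, that of Rps14 in the RTOC channel of the E14.5 array, was saturated. Across members the mean signal went with the ratio on the E15.5 array (r = 0.58) and less on the E14.5 array (r = 0.12), while the GC content of the probe, 35% to 75%, gave r = -0.26 with the mean ratio, beside -0.12 over all probes tested. Both are descriptions across 76 genes, and the part of signal or base composition in the ratios was not tested.

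For 56 of the 76 genes a promoter sequence of RefSeq was given (GRCm38.p6, 250 bases before to 50 after the annotated start). A C followed by at least 5 more C or T, on the strand of the gene and beginning within 20 bases before to 30 after that start, was found at 45 of the 56 genes (80.4%) and at 39.0% of all 27025 gene symbols in the table; some genes have several promoters, and by promoter the shares were 72.7% and 35.5%. Windows of 30 bases are shown for 3 genes of the upper end and 4 of the lower end of the ratios, to set the tract beside the values, with the tract in capitals.
Rps7, chr12:28635910-28635939, minus strand: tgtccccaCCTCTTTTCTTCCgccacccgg
Rps27, chr3:90213629-90213658, minus strand: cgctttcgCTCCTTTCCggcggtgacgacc
Rpl26, chr11:68901581-68901610, plus strand: gtgtagttCTCTTTCCTTTTgcggccatcg
Rps27l, chr9:66946066-66946095, plus strand: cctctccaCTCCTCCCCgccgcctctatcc
Rpl4, chr9:64173362-64173391, plus strand: tgacaagtCTTTCCTTTTCCTgtgggagca
Rpl14, chr9:120571501-120571530, plus strand: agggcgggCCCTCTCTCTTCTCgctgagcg
Rps2, chr17:24720059-24720088, plus strand: atctcgcgCTTCTTggagcactataaattg

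Only genes with a match could be shown, and the 3 of the upper end were picked among them, so their tracts are no result about that end. The tract had 13, 9 and 12 bases in Rps7, Rps27 and Rpl26, and in Rps7 and Rpl26 it began 22 and 23 bases after the annotated start. In Rps27l, Rpl4, Rpl14 and Rps2, the 4 genes with a mean below 0, it had 9, 13, 14 and 6 bases, the last being the shortest that the search allowed. The 45 genes with a tract of this form had a median log2 ratio of 0.9997. The 11 without it, among them Rps16 (1.11), Rps28 (1.02) and Rplp0 (0.38), had a median of 0.76. A match to these letters is not a shown start of transcription, since the tract acts only as the first bases of the mRNA.

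Other genes of the translation machinery, taken from lists of known roles, were set beside the family. Of 20 further genes with TOP mRNAs, 4 rose and 0 fell, a share of 20% beside 16.7% of all genes called higher, with a median log2 ratio of 0.47. Eif3e, a subunit of initiation factor 3, was at 2.06 and 1.18 (1.62 ± 0.63, limma adjusted p = 0.017). Naca, a chaperone at the exit of the ribosome, was at 1.75 and 1.17 (1.46 ± 0.41), and Gnb2l1, the scaffold protein of the small subunit also called Rack1, at 0.92 and 1.21 (1.07 ± 0.21). The 78 mitochondrial ribosomal protein genes, whose products work in a ribosome of their own, had a median of 0.03, with 1 higher (1.28%, beside 16.7% of all genes; Mrpl48, 1.38 ± 0.14) and 2 lower (2.56%, beside 12.1%; Mrps18b, -1.34 ± 0.42, and Mrpl37, -1.07 ± 0.13), of which Mrps18b no longer passed after normexp and loess.

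Genes that make or serve the ribosome had medians below 0. Of 50 ribosome biogenesis genes 0 rose and 5 fell, a share of 10% beside 12.1% of all genes called lower, with a median of -0.56 that was -0.34 after normexp and loess. Rrp12, needed for export of the subunits, was at -2.19 and -1.74 (-1.96 ± 0.32, limma adjusted p = 0.006), Rrp9, of the U3 particle, at -1.29 ± 0.27 and Gar1, of the pseudouridylating particles, at -1.18 ± 0.18. After normexp and loess Rrp12 stood at -0.40 and no longer passed. Of 20 cytosolic tRNA synthetases 0 rose and 10 fell, with a median of -0.91. Gars was at -1.97 and -1.68 (-1.82 ± 0.21, limma adjusted p = 0.007), Aars at -1.47 ± 0.28 and Rars at -1.31 ± 0.09. After normexp and loess Gars (-0.96) and Rars (-0.73) still passed at smaller ratios. The other initiation factors had a median of -0.26, with 2 of 29 lower (6.90%), Eif6 (-1.19 ± 0.27), which keeps the subunits apart, and Eif4g1 (-1.004 ± 0.25). This median became 0.00 with normexp and median centring. Of those counted with the TOP mRNAs, Eif3e was higher at 1.62, while Eif3f (0.80), Eif3h (0.36) and Eif4b (0.30) did not pass. Elongation and release factors had a median of -0.50, with Eef1e1 lower (-1.02 ± 0.10) and 9 of 10 not called, and the median was -0.31 after normexp and loess.

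**Figure D4:**
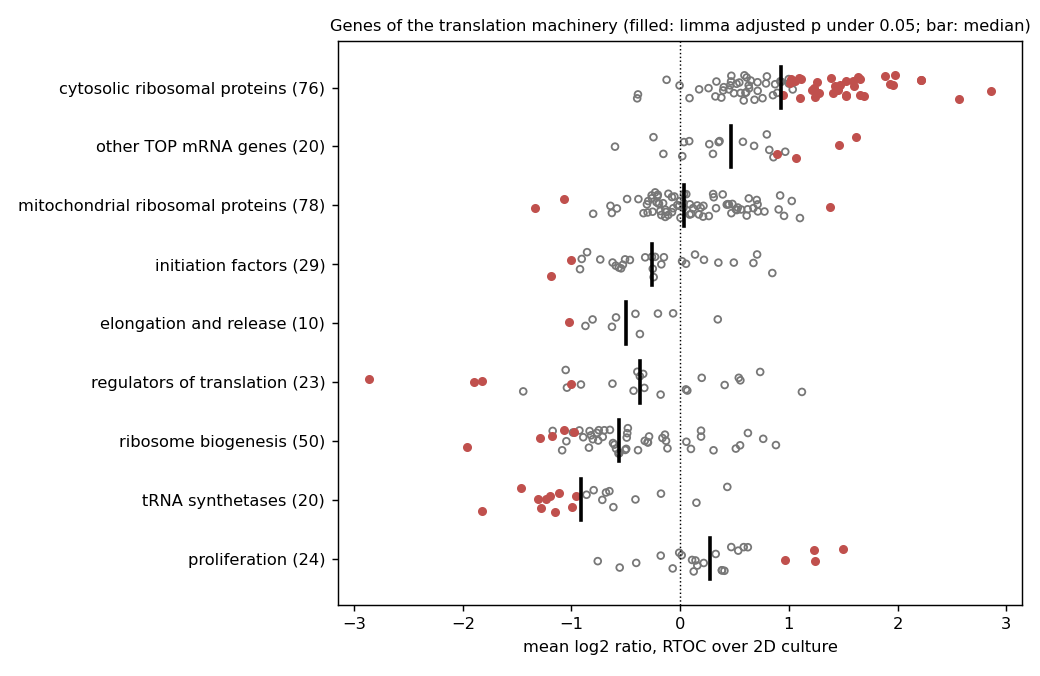
Mean log2 ratio of RTOC over 2D culture for each gene (points, scattered vertically for legibility) of the ribosomal protein family and of 8 lists, with the number of genes tested in brackets, the median as a bar and genes past the limma threshold filled. The ribosomal protein genes have the highest median, 0.93, and the tRNA synthetases the lowest, -0.91.

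Among 23 genes listed as regulators of translation and ribosome synthesis 0 rose and 4 fell (17.4%, beside the 12.1% of all genes). Their median was -0.37, and -0.19 after normexp and loess. The 23 include Trp53, the gene of p53, Mdm2 and Cdkn1a. Mdm2 and Cdkn1a are among the 4, so this count is not of translation regulators alone. Cdkn1a, the cell cycle inhibitor induced by p53, was at -2.77 and -2.96 (-2.86 ± 0.14, limma adjusted p = 0.002), Eif4ebp1, the repressor of eIF4E that mTORC1 inactivates, at -2.17 and -1.61 (-1.89 ± 0.40, limma adjusted p = 0.008), and Mdm2 at -2.11 and -1.55 (-1.83 ± 0.40, limma adjusted p = 0.008). Mdm2 and Cdkn1a were thus lower on both arrays on which Rpl5, Rpl11 and Rpl23 were higher. Myc, which drives transcription of ribosomal components, was at -1.62 and -0.48 (limma adjusted p = 0.073), Mtor at -0.33 and -0.46, and Larp1, which binds TOP mRNAs, at -0.68 and -0.06. None of these 3 passed the test.

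Markers of cell types also moved between the cultures, and their part in the ratios of the family was not tested. Over all genes tested, 16.7% were called higher and 12.1% lower. Of 14 thymic epithelial markers, all well above background, 8 rose, Foxn1 by 2.66 and Psmb11 by 3.91 on the log2 scale. The 3 that fell were Cldn4, by 4.27, Krt14, by 1.86, and Cdh1, by 1.28. The log2 of the summed signal of the list was 18.31 and 19.37 in 2D culture and 20.12 and 20.11 in RTOC, a sum to which the brightest markers add most. For 9 fibroblast markers it was 18.84 and 18.60 against 18.11 and 18.21, with 3 higher and 5 lower, of which Col1a2 and Pdgfrb no longer passed after normexp and loess. For 6 endothelial markers it was 10.63 and 9.51 against 12.91 and 13.57, with only Emcn and Kdr well above background in both 2D cultures. Emcn rose by 3.87 and Kdr was at 1.43, which did not pass. Pecam1, Cdh5, Tek and, on 1 array, Cldn5 entered the test through RTOC alone, so no count is drawn from them and the summed 2D signal holds values not well above background. For 7 macrophage and dendritic cell markers it was 16.09 and 15.88 against 17.59 and 17.96, with 4 higher. For 5 smooth muscle and pericyte markers it was 19.17 and 18.94 against 15.90 and 15.19, with 3 of the 4 tested lower and Des not well above background anywhere. For 8 thymocyte markers it was 10.48 and 10.76 against 12.01 and 11.70, with Rag2 and Cd8a not well above background anywhere. Ptprc, Cd3e and Lck cleared the background in all 4 channels. Ptprc rose by 1.88, while Cd3e (-0.08) and Lck (0.30) did not pass. Ptcra entered the test through RTOC alone and is not counted, and the 2D sum of this list also holds values not well above background. Of 24 proliferation genes 4 rose, the same share as the 16.7% of all genes, and 0 fell, with a median log2 ratio of 0.27, Mki67 at 1.50 ± 0.24, Ccnb2 at 1.24 ± 0.57 and Kif11 at 1.23 ± 0.07; after normexp and loess neither Ccnb2 (1.14) nor Kif11 (0.60) passed.

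The direction of the family was the same under each way of processing, but its size was not. Over the scalings, the median log2 ratio ran from 0.83 with the processed signals as deposited and median centring to 1.50 with normexp and median centring, a scaling that also moved the median of all probes to 0.12. With the median over the probes of a gene in place of the brightest probe it was 0.79. The number of genes called ran from 33 to 61 over the scalings and spot choices. After normexp and loess 49 genes passed, of which 25 were shared with the 34 genes and 24 were further ones. The 9 genes lost there, among them Rpl10a, Rpl26, Rpl30, Rpl36a, Rpl39, Rps15a, Rps24 and Rps27a, were all higher on the E14.5 array.

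**Figure D5:**
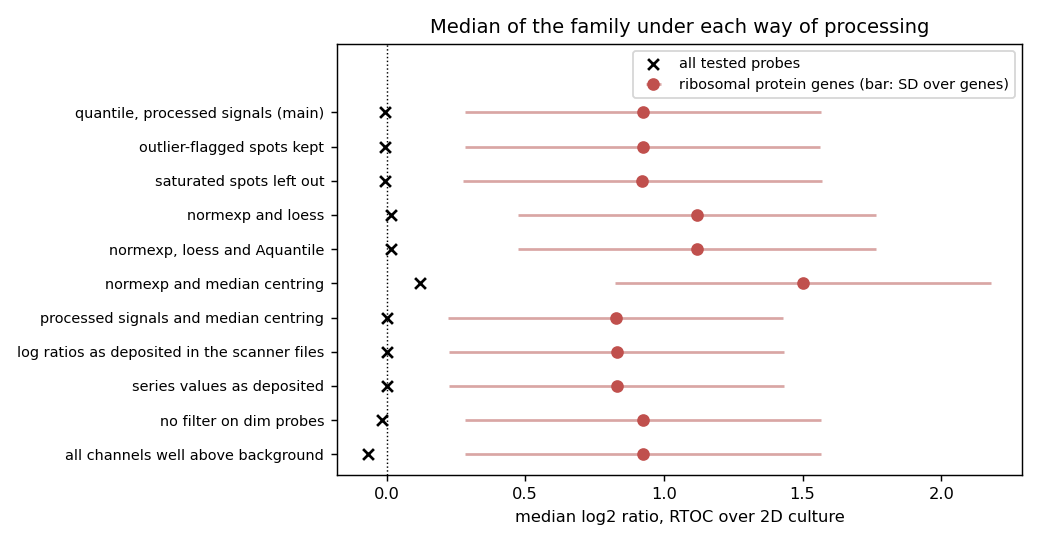
Median over the ribosomal protein genes of the mean log2 ratio (circles, with the SD over genes as bars) and median over all probes tested (crosses) under each way of processing the arrays. Over the ways drawn, all with the brightest probe of a gene, the family median stays between 0.83 and 1.50 while the median of all probes stays within 0.12 of 0.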

How the data were processed

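RNA of RTOC and RNA of 2D culture were compared on 2 two-colour arrays. The authors scanned them and ran Feature Extraction (version 11.5.1.1 in the submitters' processing notes; the file headers name an earlier release, and labels and methods differ on the RNA kit and the scanner). The deposited files hold for each of 43379 spots other than controls a processed signal, which is an intensity less its background and with the dyes balanced on each array, mean and background signals, also as an intensity, and a log10 ratio of Cy5 over Cy3. The deposited series values are the log10 ratio of the processed signals and are not quantile normalized. The files' own p-values were not used.

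Control and outlier-flagged spots (5 for E14.5 and 1 for E15.5) were dropped, quantile normalization was run over the 4 channels, as the methods state for the arrays, ratios of Cy5 to Cy3 were put on the log2 scale, and the spots of each probe were averaged. Testing needed a signal well above background in 1 or more channels of each array (23685 of 41174 probes, 123 of 128 member probes). The ratio was tested against 0 with limma 3.58.1 in R 4.3.3 (intercept, eBayes, two-sided, Benjamini-Hochberg over all probes, threshold 0.05), and the steps were tested on simulated data. The brightest probe stood for a gene. Names were updated through RefSeq, by which Rps3a is now Rps3a1. Each array holds cultures of its own stage, with no repeat of a stage, so p-values measure only the spread between these 2 arrays, whose number limits precision. The fit without the replicate block treats the channels as 4 samples.

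The family, the gene lists and the tests were chosen with earlier results of these data known. Named were the 8 highest and 8 lowest genes, genes of the functional groups, genes whose probes differed by over 1 or in sign, the 5 genes whose arrays differed most and the 3 that differed least, paralogues, and the 3 called genes of each other list with the largest change, with Myc, Mtor and Larp1; Rpl22 and Rpl7a were named after their values were seen, and a few genes are not reported here by name. Alternatives were normexp (offset 50) with loess, loess and Aquantile, or median centring; processed signals with median centring; the deposited log ratios; no dim filter; all channels above background; outlier spots kept; saturated spots left out; no replicate block; trended and robust eBayes; the methods' t-test; each array left out; the median over the probes of a gene; other measures of agreement and spread; and current symbols only. The deposited series values were added after the data were seen.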

Additional observations from a re-analysis of the deposited data

Results flagged for a closer look

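For 4 genes of the family the arrays gave opposite directions, one for E14.5 and the other for E15.5 stroma. With 1 array each the difference was not tested; besides the stage, the arrays differ in the days of organ culture. The E14.5 ratio exceeded the E15.5 ratio by 1.26 on the log2 scale for Rpl31 and by 0.66 for Rps27l. For Rpl9 and Rpl8 the E14.5 ratio minus the E15.5 ratio was -0.87 and -0.75. Over all genes tested 20.1% had opposite signs.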

How the results depend on the processing

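The family median was above 0 under each alternative. From 0.93 it moved to 1.12 with normexp and loess, with or without Aquantile, to 1.50 with normexp and median centring, to 0.83 with processed signals and median centring (0.826) and with the deposited log ratios or series values (0.829), and to 0.79 with the median over the probes of a gene; with either array alone it was 0.84 to 0.90. The 46 probes called higher became 79 with normexp and median centring and 0 without the dim filter or by the methods' t-test, and were 31 without the replicate block, which also ended the calls of 8 of the 34 genes. Counts under the other alternatives were 44 to 62, with at most 1 probe lower. Over all probes tested 3626 were higher and 3229 lower; the counts became 2008 and 1701 with normexp and loess, 2219 and 685 with normexp and median centring, 2232 and 1817 without the replicate block, 3 and 1 by the methods' t-test and 0 and 0 without the dim filter. The SD over genes was 0.60 to 0.68 under other processing (0.49 and 0.89 on single arrays) and r between the arrays 0.69 to 0.77. Rps2 turned to 0.057 with normexp and loess, with or without Aquantile, and to 0.50 with normexp and median centring; Rps27l turned to 0.12 and 0.47, and Rpl4 to 0.10 with normexp and median centring. On single arrays Rpl31 was -0.045 to 1.21, Rpl8 -0.29 to 0.46 and Rps27l -0.33 to 0.32. The median of the initiation factors not counted with the TOP mRNAs, -0.26, became 0.0011 with normexp and median centring. The causes were not tested.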

Other observations

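Ribosomal protein genes whose names fall outside the rule were looked up after the values of the family were seen. Rpl22l1, a paralogue of Rpl22, was at log2 ratios of 3.47 (E14.5) and 1.91 (E15.5), with a mean of 2.69 ± 1.11 (SD, n = 2 arrays, limma adjusted p = 0.009). It stood near the top of the range of the 76 genes. Rpl39l, a paralogue of Rpl39 known from testis, was well above background in RTOC on both arrays and on neither in 2D culture, so its ratio has only a bound. Rpl36al was at 0.70 ± 0.53 and Rpl7l1 at -0.29 ± 0.51, and neither passed the test. Fau, which yields a protein of the small subunit, was at 0.58 ± 0.41, and Rpsa, the small subunit protein also known as the laminin receptor, at 0.27 ± 0.19. These 2 did not pass either, although Fau (0.94) did after normexp and loess.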
